A study of Mus musculus with 6 samples.

Results

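The genes described here are those of the bone morphogenetic protein (BMP) and transforming growth factor beta (TGF-beta) pathway in mouse primary cultured oligodendrocyte precursor cells (mOPCs). They were chosen by symbol, as all genes named as BMPs and their receptors, Smads, TGF-beta isoforms and their receptors, activin receptors, growth differentiation factors (Gdf) and inhibin beta subunits, with the extracellular antagonists Nog, Chrd, Fst and Grem1 and the decoy receptor Bambi. The rule found 56 of the 23038 genes listed in every library. A match on the name alone also brought in Bmp1, Bmp2k, Tgfb1i1 and Tgfbrap1, which are neither ligands, receptors nor Smads and are described apart.

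mOPCs, immunopanned from mouse embryos, were transfected with control siRNA (siNC) or with siRNAs against Qk (siQk), and poly-A RNA was sequenced from 3 biological replicates of each. Qk encodes the RNA-binding protein Quaking, which controls splicing and stability of glial mRNAs. The study used 3 different siRNAs against Qk, and the labels do not give which siRNA each siQk library received, so an effect of a single siRNA cannot be told apart from a replicate. The age and genotype of the cultures are not given in the labels, though the study's methods do state the embryonic day of the embryos.

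BMP and activin-type ligands bind a complex of type I and type II receptor kinases, which phosphorylate the receptor-regulated Smads. Smad1, Smad5 and Smad9 carry the BMP signal, Smad2 and Smad3 carry the TGF-beta and activin signal, and both sets pair with Smad4 to reach the nucleus. In the oligodendrocyte lineage BMP ligands are known to hold back maturation of precursors and to favour an astrocytic fate.

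After Qk KD 3 of the 4 tested BMP receptors were called changed, in both directions, where 31.0% of all 12505 tested genes were called. Acvr1 was not called, and whether so small a group departs from that share was not tested. Transcripts of Bmpr1a (log2 fold change, logFC, siQk over siNC, -0.64, SE 0.0862) and Bmpr2 (-0.43, SE 0.0789) fell, whereas Bmpr1b, present at under 1 RPKM, rose (0.65, SE 0.177). Among Smads, Smad2 (-0.40, SE 0.0768) and Smad3 (-0.59, SE 0.117) fell and Smad4 rose (0.29, SE 0.0583). Among ligands, Bmp4 rose (0.69, SE 0.155), while Tgfb2 (-1.19, SE 0.302) and the row listed as Gdf1 (-0.50, SE 0.103) fell. Reads of that row cannot be told apart from those of the overlapping gene Cers1. None of the 6 tested TGF-beta and activin receptors, and none of the 4 tested antagonists, passed the test.

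Calls required P below 0.01 together with a false discovery rate (FDR, after Benjamini and Hochberg) below 0.1 in edgeR's quasi-likelihood test, fitted to the tag counts of all 12505 genes with an average logCPM over 0 (log2 of the counts scaled to library size). Of the 56 members, 33 passed this filter on low counts and were tested, and 12 of the 33 (36.4%) were called. Over all tested genes 31.0% were called, so that the share of called members stood near the background. By direction, 3 members (9.09%) were higher in siQk, against 13.8% of all tested genes, and 9 (27.3%) were lower, against 17.2%. Without the genes matched by name alone, 9 of 30 (30.0%) were called, 3 higher and 6 lower. The median logFC was -0.0052 over the tested members and 0.010 over all tested genes. The called members had a median absolute logFC of 0.59, as did all called genes, and 2 of the 12 reached an absolute logFC of 1, compared with 23.2% of all called genes.

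Levels are given in RPKM, tags scaled by the length of the exons in kilobases and by the depth of the library. The RPKM of the 3 siNC and the 3 siQk libraries did not overlap for 18 of the 33 tested members (54.5%), near the 58.3% among all tested genes, and for 11 of the 12 called. RPKM carries no correction for library composition, and edgeR's TMM scaling does: with library size alone the median logFC over all tested genes was 0.16, so that fold changes here are relative to the TMM scale. Under library size alone 4 members were called higher and 6 lower, and 2989 of all tested genes were called higher and 1365 lower, against 1730 and 2149 with TMM.

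**Figure D1:**
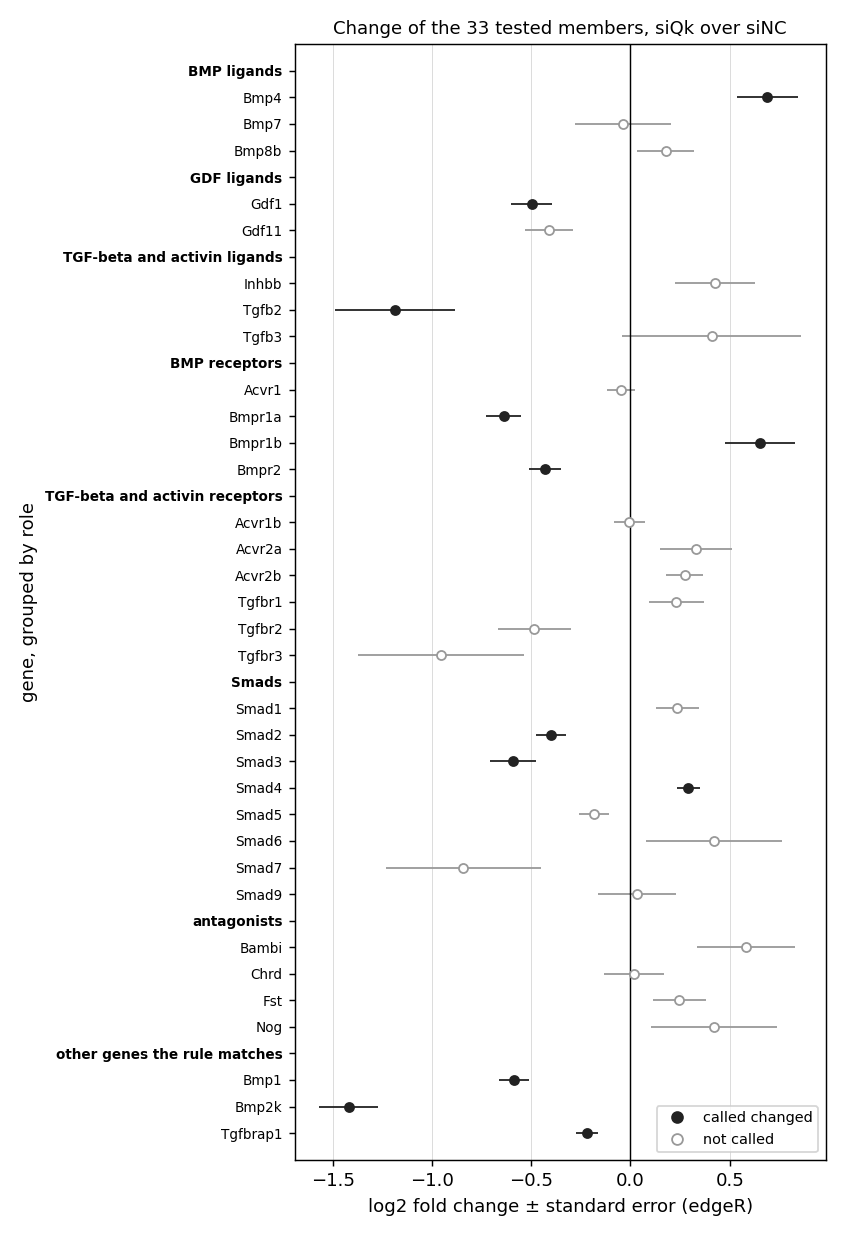
Log2 fold change of siQk over siNC for each of the 33 tested members, grouped by role, with bars of 1 standard error from edgeR. Filled points are the 12 called members, of which 3 lie above 0 and 9 below, and Bmp2k lies farthest from 0 at -1.42.

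Qk itself was at 209, 206 and 163 RPKM in siNC and at 51.3, 76.6 and 36.2 RPKM in siQk, with no overlap between the groups. The siQk mean was 28.4% of the siNC mean (logFC -1.98, SE 0.276, edgeR adjusted p = 0.00311), and the exact two-sided permutation test of the RPKM gave p = 0.1, the smallest that 3 libraries against 3 allow. Library totals ran from 58166490 to 141045937 tags. The library siNC replicate 1 was the smallest and held more ribosomal RNA, with 3.11% of its tags on Rn45s and 0.169% to 0.389% in the other 5, and without it 12 members were still called, 11 of them shared. Without siNC replicate 3, 10 members were called with Smad4 as the 1 higher, and without siQk replicate 1, 8 were called. Over all tested genes 13.8% were called higher and 17.2% lower, the shares to set beside the marker counts that follow. All 10 listed OPC markers were tested, and 4 were called higher and 1, Lhfpl3, lower (logFC -1.07). Their summed level ran from 1049 to 1132 RPKM in siNC and from 1268 to 1431 RPKM in siQk. This and the other marker sums are of RPKM, without the TMM correction for library composition. Markers of mature oligodendrocytes were abundant, with 6 of 9 tested called lower and sums of 2533 to 4816 RPKM in siNC against 1046 to 1722 RPKM in siQk. In siNC replicate 3 that sum was 2533 RPKM, the lowest of the siNC group. Astrocyte markers summed to 293 to 413 RPKM in siNC and 288 to 311 RPKM in siQk. Of 8 tested, 4 were called lower and 0 higher, and Gja1 and Gjb6 were at most at 0.013 RPKM. The largest falls were in Gfap (51.4 to 101 RPKM in siNC, 9.08 to 11.3 RPKM in siQk, logFC -2.95) and Aldh1l1 (logFC -2.21). Neuron markers summed to 204 to 289 and 225 to 272 RPKM, with 3 of 9 tested called higher, 0 lower and Stmn2 at most at 0.0439 RPKM. The 3 were Snap25 (logFC 2.64), Nefl (1.61) and Map2 (0.57, 49.5 to 66.5 RPKM in siNC and 95.0 to 98.4 RPKM in siQk). The neuron markers did not move as a set, with 6 of the 9 tested at a positive logFC and 3 at a negative one. Those 3, Tubb3 (-0.57), Elavl3 (-0.61) and Rbfox3 (-0.57), were not called. Microglial markers stood at 0.734 to 3.32 and 0.337 to 0.413 RPKM with C1qa at 0. P2ry12, the only microglial marker tested, was called lower (logFC -3.16). Markers of fibroblasts and vessels stood at 2.90 to 5.19 and 4.03 to 5.23 RPKM with Cldn5 at 0. In bulk RNA fewer cells of a type and less RNA per cell cannot be told apart, and the part of these marker shifts in the members' changes was not tested.

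Quaking binds RNA at the core motif ACUAAY, and the longest annotated 3'UTR of each tested gene was searched on the sense strand for its DNA forms ACTAAC and ACTAAT. At least 1 match lay in 17 of the 33 tested members (51.5%), against 37.0% of 11850 tested genes with a 3'UTR of at least 50 nt. The members' 3'UTRs were also longer, with a median of 2685 nt against 1476 nt, and per kilobase the motif was about as frequent in members (0.349) as in all of them (0.33). It was found in 5 of the 9 members called lower, in 2 of the 3 called higher and in 10 of the 21 not called. The windows below hold matches in called members, to let the letters be set beside the fold changes. Each window is 30 bases of GRCm38 (the assembly of mm10; GENCODE M21 annotation) from the 3'UTR, printed 5' to 3' on the strand of the gene, with the motif in capitals. Bmpr2 held 6 matches, of which 2 are shown.
Bmp2k, chr5:97089740-97089769, plus strand: ttaattaatctaACTAACgcaaatggtagt
Bmp2k, chr5:97091688-97091717, plus strand: acccagaaaagcACTAATtttattacctta
Bmpr1a, chr14:34413331-34413360, minus strand: gctgacttttcaACTAACagtaaatgtatt
Bmpr1b, chr3:141837357-141837386, minus strand: actgttagagaaACTAATgccatagatttt
Bmpr2, chr1:59871710-59871739, plus strand: gtttatttcttcACTAATcctggctttgta
Bmpr2, chr1:59877044-59877073, plus strand: actgtaaaatacACTAACtcttagggtgtt
Smad3, chr9:63650005-63650034, minus strand: ctggtggcttgaACTAACaggtggtgtatc
Smad2 and Smad4 held 3 and 1 matches. None lay in the 3'UTR of Bmp1, Bmp4, Gdf1, Tgfb2 or Tgfbrap1, which says only that these letters are not in that stretch. For Bmp1 the searched 3'UTR of 5191 nt exceeded the deposited exon length of 3572 nt, so that at least part of it lay outside the counted exons. Bmpr1a fell and Bmpr1b rose with 1 match each. A match is a string of letters, and neither binding nor which 3'UTR the mOPCs use was tested.

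Of the receptors that bind BMPs, the type I kinase Bmpr1a had the highest level. Bmpr1a (GRCm38 chr14:34410734-34503341, minus strand) was at 77.5, 97.5 and 97.3 RPKM in siNC and at 68.4, 64.1 and 61.1 RPKM in siQk. The lowest siNC library lay above the highest siQk library, and the fold was 0.642 (edgeR adjusted p = 0.00286). Bmpr2, the type II kinase that partners the type I receptors (chr1:59763400-59879014, plus strand), was at 27.6, 34.2 and 30.2 RPKM in siNC and at 24.1, 25.5 and 26.2 RPKM in siQk. Its groups did not overlap either (fold 0.742, edgeR adjusted p = 0.00761), but the call was lost when libraries were scaled by size alone (logFC -0.28). The deposited exon length of Bmpr2 was 3507 nt, while GENCODE M21 gives it 17983 exonic nt, so that its RPKM rests on part of the annotated transcript and the printed windows may lie outside it.

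Bmpr1b, the second BMP type I kinase (chr3:141837136-142169425, minus strand), was scarce, at 0.417, 0.345 and 0.401 RPKM in siNC and at 0.675, 0.581 and 0.769 RPKM in siQk, from 136 to 545 tags per library. All siQk libraries lay above all siNC libraries (fold 1.57, edgeR adjusted p = 0.028). The call did not hold without siNC replicate 2 (logFC 0.56) or 3 (0.65) or without siQk replicate 1 (0.65) or 3 (0.54). In RPKM, Bmpr1a exceeded Bmpr1b 237 ± 48.8 times in siNC and 97.1 ± 15.9 times in siQk (SD, n = 3 each). As both genes were already apart in opposite directions, the groups could not overlap in this ratio. Acvr1, a further type I receptor for BMPs, was at 7.39, 8.49 and 8.67 RPKM in siNC and at 8.79, 8.64 and 8.91 RPKM in siQk, with a logFC of -0.05 (SE 0.0691) that turned positive with library size alone. The endothelial receptor Acvrl1 was not tested and reached at most 0.0634 RPKM. Summed over the group, BMP receptors stood at 113 to 141 RPKM in siNC and 97.1 to 102 RPKM in siQk, mostly from Bmpr1a.

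**Figure D2:**
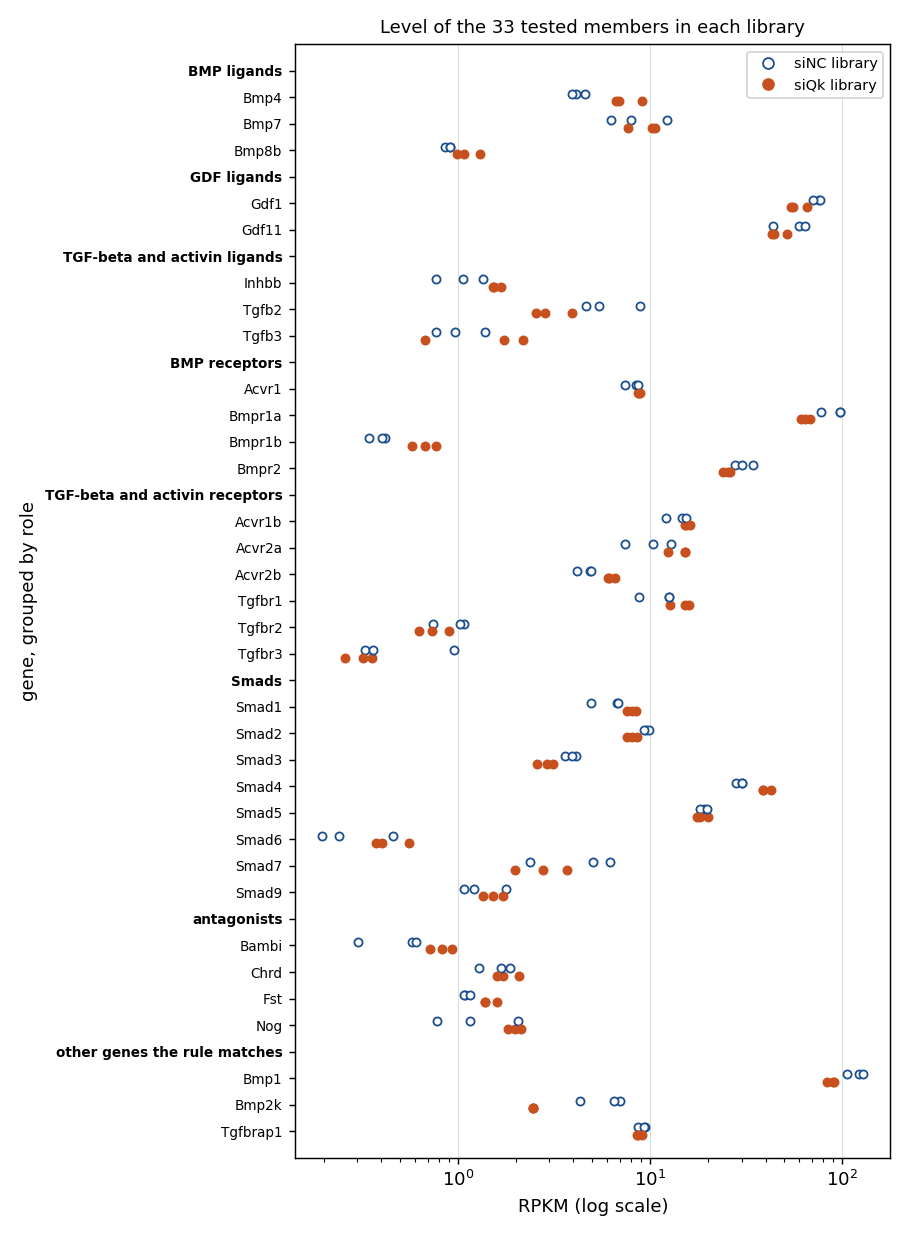
RPKM on a log axis in each library for the 33 tested members, grouped by role. Open points are the 3 siNC and filled points the 3 siQk libraries, and the groups are apart for 18 members, such as Bmpr1a (61.1 to 68.4 in siQk, 77.5 to 97.5 in siNC) and Smad4 (38.6 to 42.8 in siQk, 28.0 to 30.3 in siNC).

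None of the 6 tested receptors for TGF-beta and activins was called. The activin type I receptor Acvr1b was at 12.2, 14.8 and 15.5 RPKM in siNC and at 15.4, 15.2 and 16.2 RPKM in siQk, and its logFC of -0.01 (SE 0.0786) changed sign with the scaling. Tgfbr1, the TGF-beta type I kinase, was at 8.83, 12.6 and 12.5 RPKM in siNC and at 16.0, 12.8 and 15.3 RPKM in siQk. Its groups were apart in RPKM, but the logFC on the TMM scale was 0.23 (SE 0.137, edgeR adjusted p = 0.22).

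The activin type II receptors Acvr2a and Acvr2b also serve BMPs. Acvr2a was at 7.45, 12.9 and 10.4 RPKM in siNC and at 15.2, 12.4 and 15.2 RPKM in siQk (logFC 0.33, SE 0.18), with overlap. Acvr2b was at 4.16, 4.90 and 4.94 RPKM in siNC and at 6.08, 6.60 and 6.09 RPKM in siQk. Its groups did not overlap (logFC 0.27, SE 0.0922, edgeR adjusted p = 0.0561), and it was called with library size alone and by DESeq2. Tgfbr2, the type II kinase that TGF-beta requires, had only 0.627 to 1.07 RPKM over the 6 libraries (logFC -0.48, SE 0.184), and the co-receptor betaglycan, Tgfbr3, 0.258 to 0.950 RPKM (logFC -0.95, SE 0.418). In Tgfbr3 the value of 0.950 came from siNC replicate 2 alone. Acvr1c was not tested, with at most 0.0094 RPKM. The sum over these receptors was 33.7 to 47.2 RPKM in siNC and 48.1 to 53.9 RPKM in siQk. That sum carries no correction for library composition, and on the TMM scale none of these receptors was called.

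The receptor-regulated Smads of the TGF-beta and activin branch both fell. Smad2 was at 9.55, 9.92 and 9.30 RPKM in siNC and at 8.07, 7.60 and 8.55 RPKM in siQk (fold 0.758, edgeR adjusted p = 0.00891). Smad3 (chr9:63646767-63757994, minus strand) was at 4.14, 3.62 and 3.93 RPKM in siNC and at 2.92, 2.59 and 3.11 RPKM in siQk (fold 0.664, edgeR adjusted p = 0.00997). In both genes the groups were apart, and the Smad2 call was lost with library size alone (logFC -0.25).

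Smad4, the partner of every receptor-regulated Smad, was at 28.0, 30.3 and 30.3 RPKM in siNC and at 38.6, 42.8 and 38.9 RPKM in siQk. Every siQk library exceeded every siNC library, although the fold was small at 1.22 (edgeR adjusted p = 0.0102). The ratio of Smad4 to Smad2 RPKM was 3.08 ± 0.164 in siNC and 4.99 ± 0.572 in siQk (SD, n = 3 each), a ratio within each library that does not depend on how libraries are scaled. Both genes were already apart in opposite directions, so that the groups could not overlap in their ratio.

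No Smad of the BMP branch was called. Smad5, the most abundant of them, was at 19.1, 18.2 and 19.8 RPKM in siNC and at 17.7, 20.2 and 18.2 RPKM in siQk (logFC -0.18, SE 0.0733, edgeR adjusted p = 0.09), with overlap. Smad1 was at 4.93, 6.72 and 6.84 RPKM in siNC and at 8.10, 8.44 and 7.60 RPKM in siQk. Its groups were apart (logFC 0.24, SE 0.107, edgeR adjusted p = 0.122), and the ratio of Smad1 to Smad5 was 0.324 ± 0.0586 in siNC and 0.431 ± 0.0234 in siQk, also apart. Of the other ratios formed and not printed, Bmpr1a over Bmpr2 and Bmp7 over Bmp4 overlapped between the groups. Smad2 over Smad3 and Tgfb2 over Tgfb3 were apart. Smad9 was low, at 1.08 to 1.78 RPKM over the 6 libraries (logFC 0.03, SE 0.197).

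The inhibitory Smads, which block receptor signalling, were variable between replicates. Smad7 was at 5.07, 6.19 and 2.37 RPKM in siNC and at 2.78, 1.98 and 3.72 RPKM in siQk, and siNC replicate 3 lay among the siQk libraries. The logFC was -0.84 (SE 0.391, edgeR adjusted p = 0.131) and Smad7 was called lower only without siNC replicate 3 (logFC -1.16). That siNC library also had the lowest sum of mature oligodendrocyte markers, and a link between that sum and Smad7 was not tested. Smad6 ran from 0.197 to 0.556 RPKM (logFC 0.42, SE 0.342).

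Among BMP ligands, Bmp4 and Bmp7 were the best expressed, and Bmp4 was the one that changed. Bmp4 (chr14:46383520-46390669, minus strand), a ligand that restrains oligodendrocyte maturation, was at 4.14, 4.59 and 3.94 RPKM in siNC and at 6.90, 6.64 and 9.14 RPKM in siQk. The groups were well apart (fold 1.61, edgeR adjusted p = 0.0151), and the call was lost without siNC replicate 3 (logFC 0.62, edgeR adjusted p = 0.0376, as calls also required P below 0.01). Bmp7 was at 6.27, 12.3 and 7.93 RPKM in siNC and at 10.7, 10.3 and 7.70 RPKM in siQk, with overlap throughout (logFC -0.04, SE 0.242, of either sign depending on the scaling). Bmp8b was near 1 RPKM, 0.863 to 0.911 in siNC and 0.992 to 1.30 in siQk (logFC 0.18, SE 0.142).

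Of the growth differentiation factors, Gdf11 and the row listed as Gdf1 were tested. Gdf1 (chr8:70329817-70331587, plus strand) was at 76.1, 76.5 and 70.6 RPKM in siNC and at 55.7, 54.6 and 65.7 RPKM in siQk. The groups did not overlap (fold 0.709, edgeR adjusted p = 0.0117), but the call was lost without siQk replicate 1 (logFC -0.46, edgeR adjusted p = 0.0534). All 1349 exonic nt of Gdf1 lie within exons of Cers1, a ceramide synthase gene on the same strand that has no row of its own in these files, and the deposited exon length of 2732 nt exceeds them. Reads from Gdf1 and Cers1 therefore cannot be told apart here. Gdf11, a ligand that signals through activin receptors, was at 43.7, 59.4 and 63.8 RPKM in siNC and at 43.1, 51.4 and 44.3 RPKM in siQk. With the siNC range reaching into that of siQk it was not called (logFC -0.41, SE 0.121, edgeR adjusted p = 0.0365), as its unadjusted P lay above the limit of 0.01, though it was in 5 alternatives, among them DESeq2 and the fit without siNC replicate 1 (logFC -0.53).

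Of the TGF-beta isoforms Tgfb2 predominated and showed the largest fall of any ligand tested here. Tgfb2 (chr1:186622792-186705989, minus strand) was at 8.91, 4.64 and 5.42 RPKM in siNC and at 2.56, 2.85 and 3.92 RPKM in siQk. The groups were apart despite the spread in siNC (fold 0.44, edgeR adjusted p = 0.0232), and the call was lost without siQk replicate 1 (logFC -1.06) and without siQk replicate 2 (-1.12). Tgfb3 was at 1.39, 0.968 and 0.774 RPKM in siNC and at 1.74, 0.672 and 2.19 RPKM in siQk (logFC 0.41, SE 0.451). Inhbb, the activin B subunit, was at 0.774 to 1.35 RPKM in siNC and 1.52 to 1.68 RPKM in siQk, apart but not called (logFC 0.43, SE 0.202, edgeR adjusted p = 0.137). Tgfb1 was not tested, with 4 to 20 tags per library and at most 0.0755 RPKM.

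The antagonists bind ligands outside the cell or, for Bambi, act as a receptor without a kinase. All 4 tested had positive logFC, for Chrd with a sign that turned in 3 alternatives, and none was called. Nog, a BMP trap, was at 0.778 to 2.05 RPKM in siNC and 1.82 to 2.12 RPKM in siQk (logFC 0.42, SE 0.318), with overlap through siNC replicate 2, and was called higher without that library (logFC 0.86). Chrd, which also traps BMPs, was at 1.28 to 2.07 RPKM over the 6 libraries (logFC 0.02, SE 0.152). Fst, which binds activins, was at 1.07 to 1.16 RPKM in siNC and 1.38 to 1.61 RPKM in siQk (logFC 0.25, SE 0.134). Bambi was at 0.304 to 0.607 RPKM in siNC and 0.714 to 0.933 RPKM in siQk (logFC 0.58, SE 0.246, edgeR adjusted p = 0.104). Groups were apart for Fst and Bambi only. The BMP antagonist Grem1 was not tested (at most 0.0476 RPKM).

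All 3 tested genes that the symbol rule matched by name alone were called lower, where 17.2% of all tested genes were called lower. Bmp2k, a kinase named for its induction by BMP2 (chr5:96997689-97091867, plus strand), was at 4.35, 7.0 and 6.51 RPKM in siNC and at 2.45, 2.47 and 2.47 RPKM in siQk. This was the largest fold of any tested member (0.374; logFC -1.42, SE 0.149, edgeR adjusted p = 0.0013). Exons of Paqr3 on the opposite strand cover 14% of its exonic nt, and the library kit does not mark strand, so that reads of the overlap cannot be assigned. Paqr3 itself was called lower (logFC -0.33), with overlapping RPKM, and its part in the Bmp2k change was not tested. Bmp1, a metalloprotease that cleaves procollagen and chordin rather than a ligand (chr14:70474558-70520234, minus strand), was at 106, 123 and 129 RPKM in siNC and at 91.4, 83.8 and 89.6 RPKM in siQk, with the groups apart (fold 0.666, edgeR adjusted p = 0.00238). Tgfbrap1, a receptor-associated protein of endosomal tethering (chr1:43047200-43098637, minus strand), was at 8.68, 9.48 and 9.36 RPKM in siNC and at 8.54, 8.64 and 9.09 RPKM in siQk. Its groups overlapped, its fold was 0.86 (edgeR adjusted p = 0.0241) and 11 of the 17 alternatives lost the call, leaving out any library but siQk replicate 3 among them (logFC -0.23 to -0.20).

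The 23 members left out by the filter had low levels. Of these, 18 were under 0.1 RPKM in every library and the other 5 were Bmp2 (at most 0.553 RPKM), Bmp8a (0.227), Gdf9 (0.115), Tgfb1i1 (0.111) and Gdf7 (0.103). Bmp10 and Inhbe had no tag in any library, and a count of 0 allows up to 3 tags, or 0.0162 to 0.0392 RPKM for Bmp10 and 0.00996 to 0.0242 RPKM for Inhbe depending on the library, for counting error only. The others were Acvr1c, Acvrl1, Bmp3, Bmp5, Bmp6, Bmp15, Gdf2, Gdf3, Gdf5, Gdf6, Gdf10, Gdf15, Grem1, Inhba, Inhbc and Tgfb1. In the edgeR fit without a filter on low counts, 21 of the 23 could be fitted and 0 were called, with 1 at an unadjusted P under 0.05, and DESeq2 was not run on them. That 1 was Acvrl1 (logFC 1.49, SE 0.573, edgeR adjusted p = 0.0942), which with Bmp3 and Gdf9 made up the 3 untested members whose RPKM did not overlap between the groups.

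**Figure D3:**
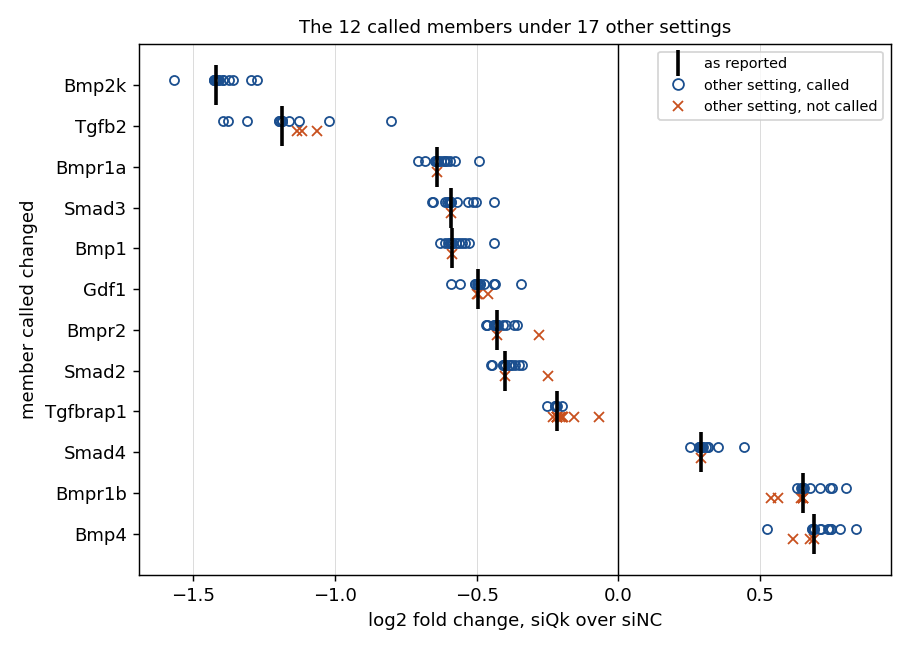
Log2 fold change of the 12 called members as reported (black bars) and under 17 other settings (circles where still called, crosses where not). All 12 kept their sign in every setting, Bmp2k was called in all 17, and Tgfbrap1 lost its call in 11.

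Of the 12 called members, Bmp2k was the only one called under all 17 alternatives, and Bmp1, Bmpr1a, Smad3 and Smad4 were lost only when an absolute logFC of 1 was also required. No called member changed sign under any alternative. The plot of settings shows Bmpr1b and Tgfbrap1 with the most lost calls, 6 and 11.

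Beyond the members, 78 other genes of the pathway were listed by role, and 54 passed the filter. Of these, 14 (25.9%) were called, below the 31.0% of all tested genes. By direction, 2 of the 54 were called higher and 12 lower, where 13.8% of all tested genes were called higher and 17.2% lower. Without siQk replicate 2, 8 of the listed genes were called. The group on ligand processing and traps had 5 of 15 tested genes called, all lower (33.3%, where 17.2% of all tested genes were called lower, median logFC -0.42), but 2 with library size alone. Nbl1, a secreted BMP antagonist, was at 25.2, 33.4 and 36.3 RPKM in siNC and at 9.96, 9.42 and 11.7 RPKM in siQk (logFC -1.75, SE 0.136, edgeR adjusted p = 0.00063). Itgb8 and Itgav together form an integrin that releases TGF-beta from its latent complex. Itgb8 was at 31.6, 59.2 and 27.9 RPKM in siNC and at 15.0, 12.6 and 12.4 RPKM in siQk (logFC -1.72, SE 0.282, edgeR adjusted p = 0.00517). Itgav changed less, with 19.9 to 23.1 RPKM in siNC and 15.3 to 18.3 RPKM in siQk (logFC -0.48, SE 0.0994). Ltbp1, which anchors latent TGF-beta in the matrix, was at 1.14 to 1.70 RPKM in siNC and 0.950 to 0.990 RPKM in siQk (logFC -0.66, SE 0.144), a call lost without siQk replicate 1 (-0.64) or 2 (-0.65). The groups did not overlap for any of these 4 genes.

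Among the 4 tested co-receptors (median logFC -0.20), Cd109, a TGF-beta co-receptor that dampens signalling, fell from 5.75, 4.23 and 5.95 RPKM in siNC to 2.50, 0.867 and 2.48 RPKM in siQk (logFC -1.59, SE 0.395, edgeR adjusted p = 0.0213). That call was lost without siNC replicate 1 (logFC -1.49) or 3 (-1.53). All 24 intracellular regulators were tested, and 1 was called higher and 4 lower (20.8% in all, below the 31.0% of all tested genes, median logFC -0.13). Hipk2, a kinase that binds Smads, was at 53.0, 42.7 and 36.8 RPKM in siNC and at 23.1, 26.9 and 28.5 RPKM in siQk (logFC -0.92, SE 0.173, edgeR adjusted p = 0.00843). Ldlrad4, listed under the older symbol D18Ertd653e, restrains Smad activation and was the gene that rose, from 0.283, 0.363 and 0.330 RPKM to 0.532, 0.693 and 0.810 RPKM (logFC 0.91, SE 0.212, edgeR adjusted p = 0.0175). Its call was lost without any 1 of siNC replicates 1 and 3 and siQk replicates 2 and 3 (logFC 0.75 to 0.90). The Smad corepressor Tgif2 (logFC -0.48, SE 0.123) and the receptor-binding protein Strap (logFC -0.31, SE 0.0622) fell by less. Tgif2 lost its call without any 1 library other than siNC replicate 2 (logFC -0.49 to -0.41), and Strap without siQk replicate 1 (-0.31) or 3 (-0.28). None of the other superfamily ligands listed (Amh, Lefty1, Lefty2, Mstn and Nodal) was tested, and Amh reached the highest level at 0.553 RPKM.

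Of 11 tested response genes, 3 were called (27.3%, near the 31.0% of all tested genes, median logFC -0.16). Tgfbi, an extracellular matrix protein named for its induction by TGF-beta, was at 3.83, 4.32 and 5.05 RPKM in siNC and at 0.515, 0.558 and 0.588 RPKM in siQk (logFC -3.14, SE 0.13, edgeR adjusted p = 0.000234), the largest change of any pathway gene tested. Cdkn1a, a cell cycle inhibitor induced by TGF-beta and by other signals, was lower (logFC -0.51, SE 0.141, edgeR adjusted p = 0.0295) with overlapping RPKM, and not called without siNC replicate 2 or 3 or siQk replicate 2 or 3 (logFC -0.55 to -0.39). Msx1, a transcription factor induced by BMPs, was at 1.97, 1.95 and 2.25 RPKM in siNC and at 3.04, 4.13 and 3.03 RPKM in siQk (logFC 0.57, SE 0.154, edgeR adjusted p = 0.0278), but leaving out any 1 library lost the call (logFC 0.42 to 0.64).

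The Id genes, best known as direct targets of BMP-activated Smads, were not called. Id3 was at 196, 233 and 208 RPKM in siNC and at 263, 253 and 290 RPKM in siQk, apart in RPKM (logFC 0.19, SE 0.0866, edgeR adjusted p = 0.125) and called higher with library size alone. Id4 was at 16.5, 27.0 and 20.4 RPKM in siNC and at 28.0, 30.3 and 34.6 RPKM in siQk, likewise apart (logFC 0.39, SE 0.169, edgeR adjusted p = 0.107), and called higher without siNC replicate 2 (logFC 0.59). Id2 overlapped between the groups, with 68.8 to 120 RPKM in siNC and 96.8 to 133 RPKM in siQk (logFC 0.08, SE 0.211). Id1 stood at 0.642 to 1.16 RPKM and was not tested.

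**Figure D4:**
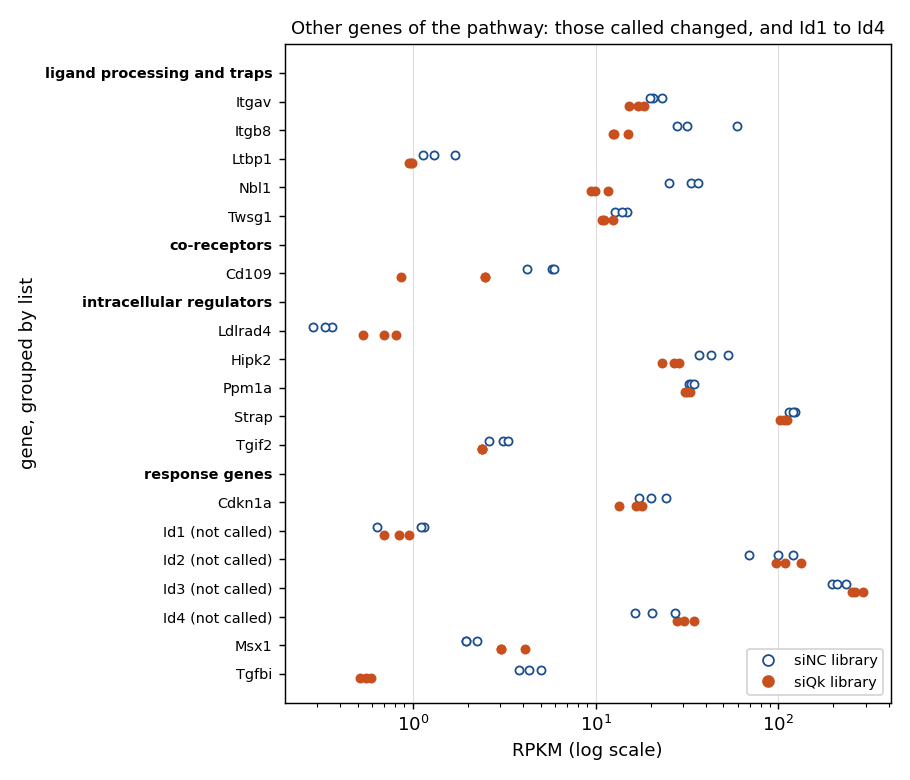
RPKM on a log axis in each library for the 14 called pathway genes that are not members, grouped by list, and for Id1 to Id4. Open points are siNC and filled points siQk libraries, and Tgfbi shows the widest gap (3.83 to 5.05 in siNC, 0.515 to 0.588 in siQk).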

How the data were processed

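RNA-seq libraries from mOPCs, 3 siNC and 3 siQk, were grouped by the siRNA label. Per the study's methods the authors aligned paired reads to mm10 with OLego and counted genes with Quantas, and versions and annotation are not given in the sources used here. For each library and gene the authors deposited an estimated count of tags, not normalized, the exon length in nt, and the RPKM, which recomputation from count, length and library total matched. Between 23.1% and 26.2% of genes had estimated counts with decimals, and all were rounded. Genes with average logCPM over 0 were tested with edgeR 4.0.16 (R 4.3.3, TMM, quasi-likelihood F test, Benjamini-Hochberg adjustment over all 12505 genes), and a gene was called at P below 0.01 and FDR below 0.1, the cutoffs the study names. RPKM means and SDs are of deposited values. Members and lists were chosen with earlier results of these data known. Every tested member is named. Called members and those with a mean of at least 5 RPKM in a group have all libraries printed. Of each pathway list up to 4 called genes by size of change, and Id1 to Id4, are named. Alternatives were other scalings, filters and thresholds, DESeq2 1.42.0, a likelihood ratio test, a replicate block, thinning and leaving out each library. Loci, exon overlaps and 3'UTRs came from GENCODE M21 on GRCm38. Of the listed symbols, Nrros, Ldlrad4, Myrf and Map2 were matched through Entrez identifiers. Library totals were 58166490 to 141045937 tags and the common biological coefficient of variation was 0.146. Replicates of a group differed beyond sampling noise (chi-square per degree of freedom of at least 31.7), so that the spread between replicates, more than the depth, set the precision of the tested genes.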

Additional observations from a re-analysis of the deposited data

How the results depend on the processing

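All 12 called members kept their sign in 17 alternatives. Of the 560 values of tested members, 34 lost the call, 9 gained it and none reversed while called. Adding FDR below 0.05 and an absolute logFC of at least 1 cut the called members to 2, with 0 higher and 2 lower, the pathway list genes to 4 and all genes to 946, as that threshold itself removes small changes. Leaving out 1 library gave 8 to 12 called members (lowest without siQk replicate 1), 1 to 3 higher (1 without siNC replicate 3), 6 to 9 lower, 8 to 13 pathway list genes (8 without siQk replicate 2), 2478 to 3704 genes in all (2478 without siQk replicate 1) and a Qk logFC of -2.29 to -1.76. The replicate numbers did not pair the samples: same-numbered libraries had correlations of -0.053, -0.152 and -0.340 in their deviations. With the replicate block 8 members were called, 1 higher and 7 lower, and 7 of these were among the 12 (Bmp4, Bmpr1b, Gdf1, Tgfb2 and Tgfbrap1 lost the call and Gdf11 gained it), with 10 pathway list genes and 2796 genes in all. The causes of these shifts were not tested. Thinning all libraries to the smallest left 12 members and 3800 genes called. Without a filter on low counts, edgeR called 0 of the 21 further members that could be fitted, with 1 at an unadjusted P under 0.05.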
